A study of Mus musculus with 10 samples.

Results

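Mouse fibroblasts that had carried 4 induced reprogramming factors for 9 days, and had been sorted for SSEA1, were compared with the whole culture after 3 days of the same induction. The comparison uses 4 of the 10 libraries of the series, 2 for each day, chosen by the day in their labels. Both groups came from C57BL/6 x 129 embryonic fibroblasts (MEFs) with a polycistronic cassette of Oct4 (Pou5f1), Klf4, Sox2 and Myc in the Col1a1 locus and the transactivator M2rtTA in the Rosa26 locus. Both were kept in serum and LIF medium with doxycycline at 1 µg/ml, which switches the cassette on, and ascorbic acid at 50 µg/ml. Day 3 cells were not sorted, whereas day 9 cells were SSEA1-positive, so the time of induction and the sort cannot be told apart here. The other libraries were day 6 cells of the same induction (sorted for SSEA1), uninduced MEFs and the embryonic stem cell (ESC) line V6.5 grown on feeder cells. Their levels are given as side values. All 10 libraries were fitted together, so the others also enter the choice of tested genes, the scaling and the estimate of spread. The embryos or cultures that gave the replicates are not named, so p-values measure the spread between replicate libraries over all groups, which may be partly technical.

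Reprogramming with these factors takes fibroblasts through a loss of mesenchymal identity and a gain of epithelial junctions before the pluripotency network of the embryo is engaged. SSEA1 is a fucosylated sugar on the cell surface of early mouse pluripotent cells, and it is used to enrich cultures for cells on the way to pluripotency. Because the cassette is under doxycycline and not under the cell's own control, its output can stay the same while the expression of other genes moves.

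The day 3 libraries held 37848659 and 33992865 estimated reads and the day 9 libraries 29585876 and 37904250. Levels are given as CPM, the TMM-scaled estimated reads of a gene over the library's total. Within a group, the scaled counts of the replicates differed by more than sampling noise (chi-square per degree of freedom 5.05 at day 3 and 3.15 at day 9), so each library counts as 1 sample. Xist, the RNA that coats the silent X chromosome, was at 930 and 1090 CPM at day 3 and 1103 and 1047 CPM at day 9. The Y-linked Ddx3y was at 0.0538 and 0.0887 CPM at day 3 and 0.0964 and 0.101 CPM at day 9. Both groups therefore carried the same sex-linked pattern, while MEF libraries averaged 0.766 CPM of Xist and 88.5 CPM of Ddx3y. The Y-linked Eif2s3y, Kdm5d and Uty were not called either, and Tsix, antisense to Xist, was called higher on 5 reads against 0. Its lower bound, at least 1.67-fold, is under the 2-fold minimum, and the call was lost without either day 3 library and without the second of day 9.

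The test covered 20165 genes and called 26.9% of them. Day 9 exceeded day 3 in 2726 genes (13.5%), and 2690 genes (13.3%) changed the other way. These shares are the background for every list count below. A gene was called at an adjusted p-value under 0.05 in the quasi-likelihood test of edgeR together with a change of at least 2-fold. The size of the fitted changes was not even: 1578 genes were higher and 1273 lower by 4-fold or more, and 279 were higher and 87 lower by 64-fold or more. A fitted fold has no firm size where a group had few or no reads, so these counts depend partly on such genes. Tcl1, with no read at day 3, had a fitted log2 fold change of 7.44. Against 3 reads over the group it was at least 15.1-fold higher. The 2 libraries of one day lay outside the range of the other day for 5392 of the 5416 called genes. With 2 libraries a side such separation is common, and it held for 79% of all tested genes. Both day 9 libraries were above in 41.5% and below in 37.5%. The median log2 fold change of all tested genes was 0.043. Genes called higher took 3.5% and 3.6% of the reads at day 3 and 11.7% and 11.6% at day 9, whereas genes called lower went from 18.9% and 19% to 5.5% in both libraries. At day 6 the same genes took 7.6% and 7.4%, and 8.3% in both libraries. In bulk RNA, fewer cells of a type and less RNA per cell cannot be told apart, and this holds for every change below.

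**Figure D1:**
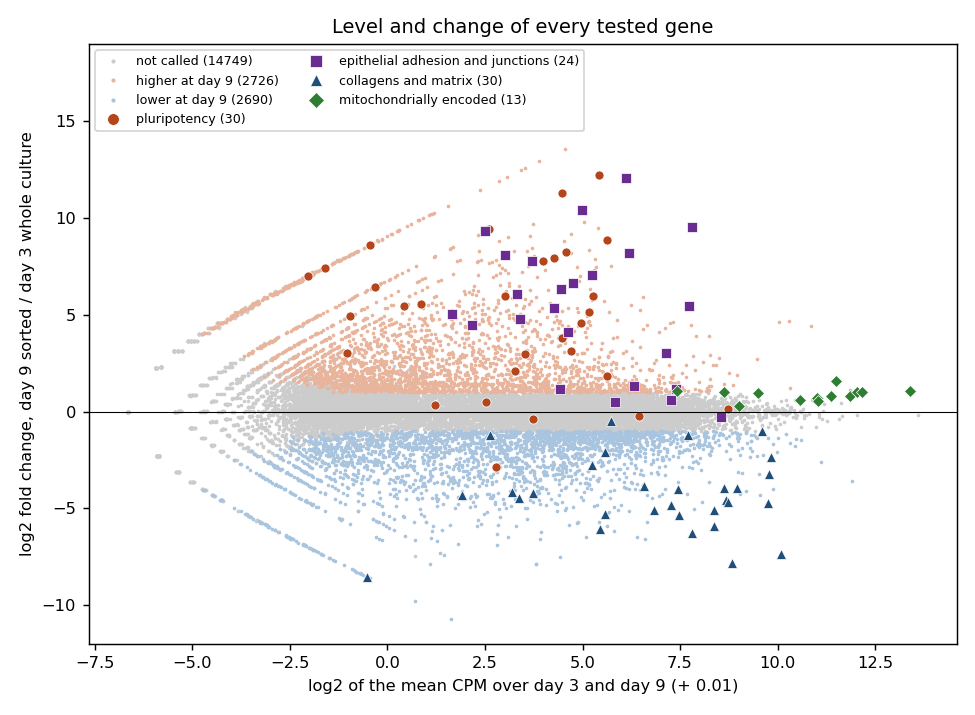
Each point is a tested gene, with the log2 of its mean CPM over both days on the x axis and its log2 fold change (day 9 over day 3) on the y axis. Pluripotency genes and epithelial junction genes lie mostly above 0, collagens and matrix genes all lie below 0, and the 13 mitochondrially encoded genes lie between 0.31 and 1.58.

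The 4 factors of the cassette were at nearly the same level on both days, and none was called. Oct4, the POU factor Pou5f1, was at 224 and 243 CPM at day 3 and 271 and 278 CPM at day 9. Its log2 fold change was 0.24 ± 0.05 (SE), with an adjusted p of 0.001 in edgeR, far under the 2-fold minimum. Klf4 was at 457 and 464 CPM at day 3 and 402 and 419 CPM at day 9. Sox2 was at 253 and 262 CPM against 271 and 280 CPM, and Myc at 276 and 275 CPM against 278 and 294 CPM. Their log2 fold changes were -0.17 ± 0.03 for Klf4, 0.10 ± 0.03 for Sox2 and 0.05 ± 0.03 for Myc. Day 6 libraries held 323 and 296 CPM of Pou5f1 and 334 and 325 CPM of Myc, the highest of the 3 days for both genes. Reads from the cassette and from the cell's own copies were not separated, and the MEF libraries averaged 325 CPM of Klf4 and 118 CPM of Myc with no doxycycline recorded.

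The pluripotency list rose broadly: 24 of its 30 tested members were higher at day 9, 1 was lower and 5 were not called, with a median log2 fold change of 5.31. Nanog, a homeodomain factor of the core network, was at 1.35 and 2.60 CPM at day 3 and 69.2 and 71.2 CPM at day 9. Its log2 fold change was 5.17 ± 0.12 (adjusted p = 7.0e-14, edgeR). Day 6 libraries lay between, at 25.0 and 26.6 CPM, and ESC libraries averaged 525 CPM. Esrrb, an orphan nuclear receptor of the naive state, went from 0.162 and 0.148 to 37.5 and 39.5 CPM. Sall4, a zinc finger partner of Oct4, went from 0.242 and 0.0591 to 48.0 and 47.8 CPM. In these 3 genes both day 9 libraries lay far above both day 3 libraries, and the ESC average was higher still, at 420 CPM for Esrrb and 180 CPM for Sall4.

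Nr5a2, an orphan nuclear receptor that can drive Pou5f1 expression, had the largest rise on the list. It lies at chr1:136842571-136960448 (GRCm38). A single read of Nr5a2 was counted in the day 3 libraries together, against 6007 at day 9, a ratio of 6029 with an exact 95% counting interval of 1082 to 238182. Such intervals, and the bounds given for genes with no read, cover counting error only. In CPM it went from 0.0269 and 0 to 86.3 and 83.9, and the ESC average was 35.7 CPM. Utf1, a chromatin-bound factor of undifferentiated cells, went from 1 read to 3155 over the group, a ratio of 3167 (interval 568 to 125117). Lin28a, an RNA-binding protein that blocks let-7, went from 1 read to 862, a ratio of 865 (interval 155 to 34212). Tdgf1, a co-receptor for Nodal, went from 0.269 and 0.148 to 99.6 and 98.9 CPM (log2 fold change 8.85).

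RefSeq lists more than 1 start for Nr5a2. The 250 bases before the inner start, at chr1:136953631-136953880 on the minus strand of GRCm38.p6, are shown because this gene had the largest fitted rise of the pluripotency list, and capitals mark matches on either strand to GGGNGNGG, the box bound by KLF and Sp factors.
Nr5a2 inner start: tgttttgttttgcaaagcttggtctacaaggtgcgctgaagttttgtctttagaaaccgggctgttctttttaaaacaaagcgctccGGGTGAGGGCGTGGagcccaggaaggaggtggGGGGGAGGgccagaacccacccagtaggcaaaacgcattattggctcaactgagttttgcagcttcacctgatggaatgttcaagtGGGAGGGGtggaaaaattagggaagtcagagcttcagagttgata
That stretch held 4 matches, some of them overlapping, and the 250 bases before the outer start held 0. A match describes the letters and not a bound site. Over all genes with a RefSeq promoter the same box was in 65.7% of 2152 promoters of genes called higher, in 66.3% of 2380 promoters of genes called lower and in 61.1% of promoters of tested genes not called. The AP-1 type motif TGANTCA was in 5.44%, 5.71% and 4.65% of the same promoters, and AAGGTCA, the type of half-site read by Esrrb and Nr5a2, in 3.35%, 3.15% and 3.11%. Within the 100 bases before the start the KLF and Sp box was in 49.4% of promoters called higher and 49.8% called lower, TGANTCA in 1.95% and 2.98%, and AAGGTCA in 0.79% and 1.22%. No test was made of these shares.

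Not every pluripotency gene moved with these. Tbx3, a T-box factor of the naive state, fell from 12.2 and 11.8 to 1.29 and 2.00 CPM, a log2 fold change of -2.84 ± 0.15. L1td1, an RNA-binding protein of pluripotent cells, was at 411 and 407 CPM at day 3 and 435 and 449 CPM at day 9, and Fgf4, a growth factor under Oct4 and Sox2, at 96.5 and 92.1 against 79.1 and 79.8 CPM. Both were already within 4-fold of their ESC averages of 520 and 201 CPM at day 3. Klf2, Klf5 and Lefty1 were the other members not called. Several called members stayed low in absolute terms. Zfp42 (Rex1), a marker of naive cells, went from 0.0538 and 0.0591 to 2.70 and 2.53 CPM against an ESC average of 290 CPM. Dppa5a went from 0.135 and 0.384 to 16.2 and 15.9 CPM against 1419 CPM in ESCs, and Otx2, Tcl1 and Prdm14 had no read at day 3 and at most 1.54 CPM at day 9. With those 3 members at the lower bound that 3 reads over the group allow, the median of the list was 4.76.

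Epithelial genes rose together. Among junction and adhesion genes 21 of 24 were higher, 0 lower and 3 not called, with a median log2 fold change of 5.39. Cdh1 (E-cadherin), the adhesion molecule of epithelial contacts at chr8:106603351-106670246, went from 10.3 and 8.69 CPM at day 3 to 405 and 423 CPM at day 9. Its log2 fold change was 5.44 ± 0.06 (adjusted p = 8.2e-17, edgeR). Day 6 libraries were at 77.4 and 80.2 CPM. Epcam, an epithelial surface adhesion protein, went from 0.565 and 0.621 to 441 and 457 CPM (log2 fold change 9.56). Its ESC average of 144 CPM was below both day 9 libraries.

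Claudins form the strands of tight junctions. Cldn6 had the largest fitted rise of the adhesion list, with 2 reads at day 3 and 9802 at day 9, a ratio of 4919 (interval 1361 to 40625). Cldn7 had 3 reads against 4510, a ratio of 1509 (interval 516 to 7320). Cldn4 went from 0.485 and 0.503 to 145 and 146 CPM and Cldn3 from 0.485 and 0.591 to 41.3 and 45.3 CPM. For each of these 4 claudins the day 9 libraries also lay above the ESC average, which was 21.2 CPM for Cldn6, 7.46 for Cldn7, 48.8 for Cldn4 and 2.82 for Cldn3. Dsp, the plaque protein of desmosomes, rose from 29.7 and 31.9 CPM to 250 and 249 CPM, with day 6 libraries at 47.8 and 41.4 CPM. Jup, another plaque protein of desmosomes, was not called, at 424 and 407 CPM at day 3 and 335 and 343 CPM at day 9. Pkp2, a desmosomal plakophilin, was not called either, at 47.0 and 47.8 against 68.9 and 63.0 CPM.

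Regulators of the epithelial state moved in the same direction, with 13 of 19 tested members higher, 0 lower and 6 not called (median log2 fold change 4.04). Esrp1, a splicing factor that sets epithelial isoforms, went from 0.135 and 0.0887 CPM to 85.4 and 82.1 CPM. Its log2 fold change was 9.49 (adjusted p = 1.6e-16, edgeR). Grhl2, a grainyhead factor that activates Cdh1 and claudin genes, went from 0.108 and 0.0591 to 52.0 and 51.7 CPM (log2 fold change 9.20). Rab25, a recycling GTPase of epithelia, went from 0.108 and 0.0887 to 45.3 and 47.2 CPM. The ETS factor Ehf was not called, at 107 and 109 CPM at day 3 and 151 and 155 CPM at day 9, and was nearly absent from MEF (0.116 CPM) and ESC (0.6 CPM) libraries. Trp63, the factor of basal epidermis, was at 0.808 and 0.532 CPM at day 3 and 0.354 and 0.379 CPM at day 9 (adjusted p = 0.14, edgeR).

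Keratins and genes of stratified epithelium rose in 18 of 21 tested members, with 0 lower and 3 not called. Those 3 were Krt13, Lor and Ivl, with Lor at 0.514 and 0.152 CPM at day 9 and Ivl at 0. The called members Krt5, Krt16, Sprr1a and Serpinb5 stayed low, at no more than 0.707 CPM in either day 9 library. Krt8 and Krt18, the pair of simple epithelia, went from 3.23 and 3.19 to 144 and 154 CPM and from 2.88 and 2.66 to 32.4 and 36.3 CPM. Krt6a, a keratin of hair follicle and activated epidermis, had 2 reads at day 3 and 1858 at day 9, a ratio of 932 (interval 258 to 7705). Its level was 26.9 and 25.8 CPM at day 9 against averages of 0.0642 CPM in MEFs and 0.0134 CPM in ESCs. Krt6a and Krt6b are near copies, so their reads may be shared between them. Tgm1, the transglutaminase that crosslinks the cornified envelope, went from 0.296 and 0.118 to 71.8 and 70.7 CPM, and its ESC average was 40.4 CPM. Not all members were low in ESCs as Krt6a was: Sfn averaged 43.3 CPM there against 44.4 CPM at day 9, and Krt17 14.1 against 14.6 CPM. In this list 4 members had no read at day 3, and with them at their lower bound the median log2 fold change of the list was 3.88 in place of 4.97.

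**Figure D2:**
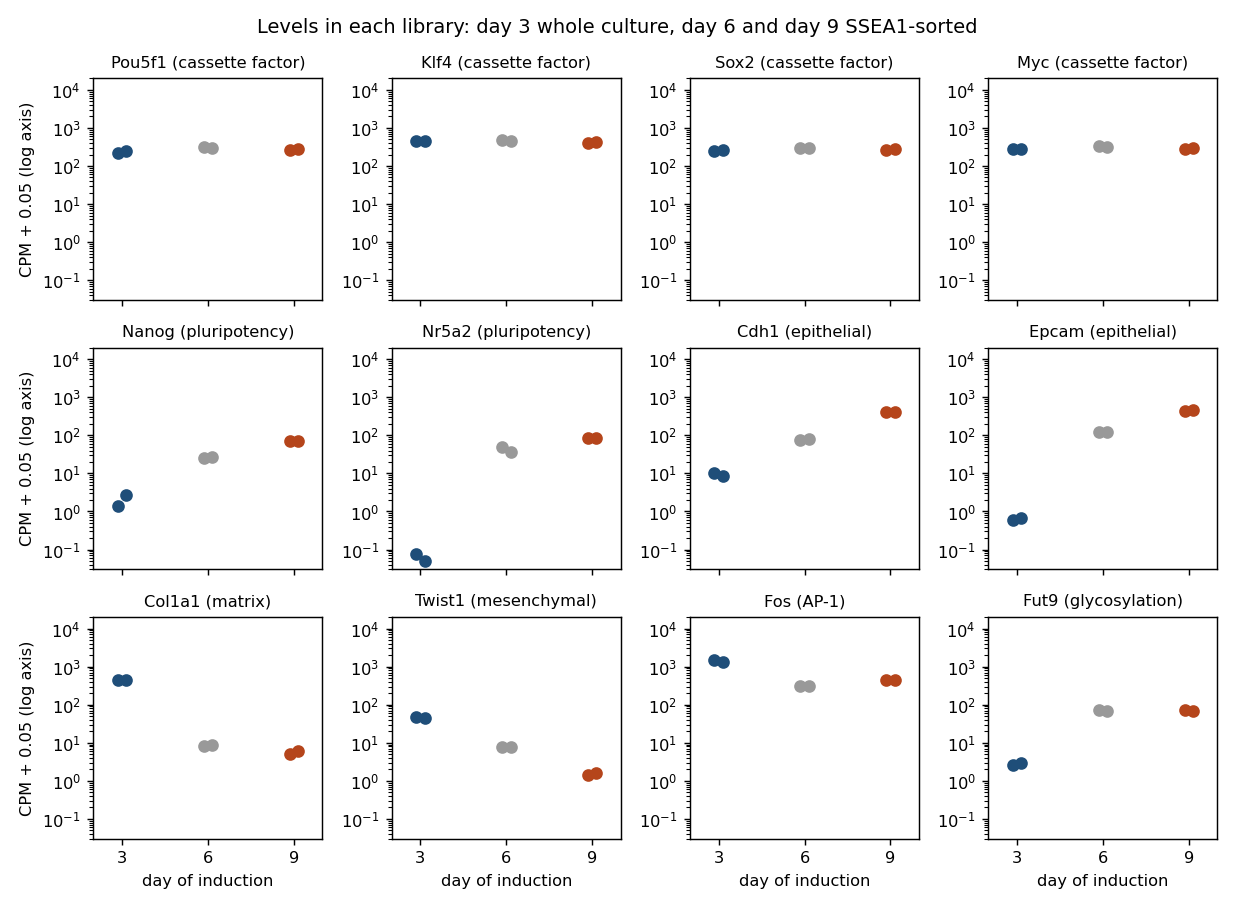
Levels of 12 genes in each library at days 3, 6 and 9 (CPM plus 0.05, log axis), with 2 points a day and the day 6 points in grey. The cassette factors stay level, Nanog, Nr5a2, Cdh1 and Epcam rise, Col1a1 and Twist1 fall, and Fos is lower at day 6 (314 and 317 CPM) than at day 9 (442 and 443 CPM).

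Transcription factors of mesenchymal cells fell: 23 of 28 tested members were lower, 0 higher and 5 not called, with a median log2 fold change of -3.61. Twist1, a bHLH driver of the mesenchymal state, fell from 47.1 and 45.4 CPM to 1.38 and 1.57 CPM (-4.96 ± 0.09, adjusted p = 7.6e-15, edgeR). Prrx1, a homeobox factor of limb and skin mesenchyme, fell from 380 and 403 to 19.3 and 21.6 CPM, with 74.4 and 71.1 CPM at day 6. Snai2, a repressor of Cdh1, fell from 10.4 and 11.2 to 0.289 and 0.253 CPM, and Zeb1, another such repressor, from 75.8 and 79.2 to 12.1 and 13.3 CPM. Zeb1 fell by 2.60 on the log2 scale and Snai2 by 5.31. Snai3, a relative of Snai2 that the list does not hold, rose from 0.835 and 0.769 to 11.5 and 11 CPM (log2 fold change 3.80). Prrx2, a relative of Prrx1, fell from 41.6 and 37.5 to 1.54 and 0.783 CPM. In the Nfi family Nfic fell, from 143 and 153 to 38.7 and 41 CPM, while 2 members were not called, with Nfix at 289 and 308 against 166 and 169 CPM and Nfib at 81.5 and 85.0 CPM at day 3 and 79.6 and 83.4 CPM at day 9. Heyl was called lower on 9 reads against 2 and lost its call when any 1 of the 4 libraries was left out.

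The AP-1 and Tead list, factors of the fibroblast enhancer landscape and of growth signals, also holds Cebp and Ets factors, Yap1 and Wwtr1. It was lower in 13 of 24 members, higher in 0 and not called in 11 (median -1.14). Cebpa, Cebpb, Cebpd, Ets1 and Wwtr1 were among the lower members. Fos was at 1507 and 1351 CPM at day 3 and 442 and 443 CPM at day 9, a log2 fold change of -1.69 ± 0.04. Junb fell from 422 and 372 to 119 and 120 CPM. Atf3 fell from 42.8 and 35.0 to 16.5 and 15.9 CPM, and its day 6 libraries were lower still, at 3.35 and 3.39 CPM. Jund was at 285 and 242 CPM against 256 and 257 CPM. Cebpa, a factor of adipose and myeloid cells, fell from 24.2 and 23.8 to 2.76 and 2.96 CPM. Fosl1 (Fra-1), a low AP-1 member here, fell from 2.02 and 1.51 to 0.675 and 0.732 CPM (-1.32 ± 0.33). Ets1 had the largest fall of the list, from 75.0 and 78.2 to 6.85 and 6.44 CPM. Of the Hippo pathway effectors, Wwtr1 (Taz) fell from 195 and 200 to 49.7 and 47.6 CPM, while Yap1 was at 199 and 195 CPM against 183 and 185 CPM and none of the 4 Tead genes was called.

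Nearly all matrix genes fell. Of 30 collagens and matrix proteins 29 were lower, 0 higher and 1 not called, with a median log2 fold change of -4.40. Col1a1, the main chain of fibrillar collagen at chr11:94936224-94953042, was at 444 and 445 CPM at day 3 and 5.14 and 6.21 CPM at day 9. Its log2 fold change was -6.28 ± 0.06 (adjusted p = 1.7e-17, edgeR), and its day 6 libraries were at 8.23 and 8.47 CPM. The cassette sits in the Col1a1 locus of these cells. Col1a2, the partner chain from another locus, fell from 2178 and 2170 to 12.3 and 14.2 CPM. Fbln5, a protein of elastic fibres, fell from 922 and 890 to 3.21 and 4.65 CPM. Fn1 (fibronectin) fell least among the called members, from 1023 and 1064 to 534 and 497 CPM (-1.02 ± 0.05). Its call was lost without the second library of day 3 and without that of day 9. Fbln1, at 63.0 and 62.0 against 44.4 and 44.7 CPM, was the member not called.

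Among genes that crosslink or cut matrix, 24 of 29 were lower, 1 higher and 4 not called. Lox, the oxidase that crosslinks collagen, fell from 97.2 and 96.5 to 1.03 and 2.07 CPM. Timp3, an inhibitor of metalloproteinases, fell from 325 and 335 to 20.5 and 21.1 CPM. Mmp10, a stromelysin, was called higher on 11 reads against 0, which is at least 3.68-fold higher against 3 reads over the group. The contractile list was lower in 19 of 20 members, higher in 0 and not called in 1. Acta2, smooth muscle actin, fell from 1805 and 1737 to 107 and 115 CPM (-3.99 ± 0.05), and Tagln from 1130 and 1074 to 61.8 and 65.8 CPM. Des, the muscle intermediate filament, was at 5.98 and 6.41 against 7.55 and 7.5 CPM.

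Surface markers of fibroblasts were lower in 19 of 22 members, higher in 1 and not called in 2 (median -2.56). Thy1, a fibroblast marker that is lost early in reprogramming, fell from 162 and 146 to 8.68 and 10.4 CPM. Cd44, a hyaluronan receptor, fell from 216 and 222 to 23.1 and 24.1 CPM, and Cdh11, a mesenchymal cadherin, from 165 and 169 to 1.86 and 1.92 CPM. Nt5e (Cd73), an ectonucleotidase, was the member that rose, from 17.8 and 18.6 to 75.2 and 73.8 CPM. Vcam1, an adhesion receptor for integrins, fell from 200 and 195 to 3.38 and 3.99 CPM. Ly6a (Sca-1) was at 434 and 393 CPM at day 3 and 298 and 323 CPM at day 9, above its ESC average of 8.57 CPM.

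**Figure D3:**
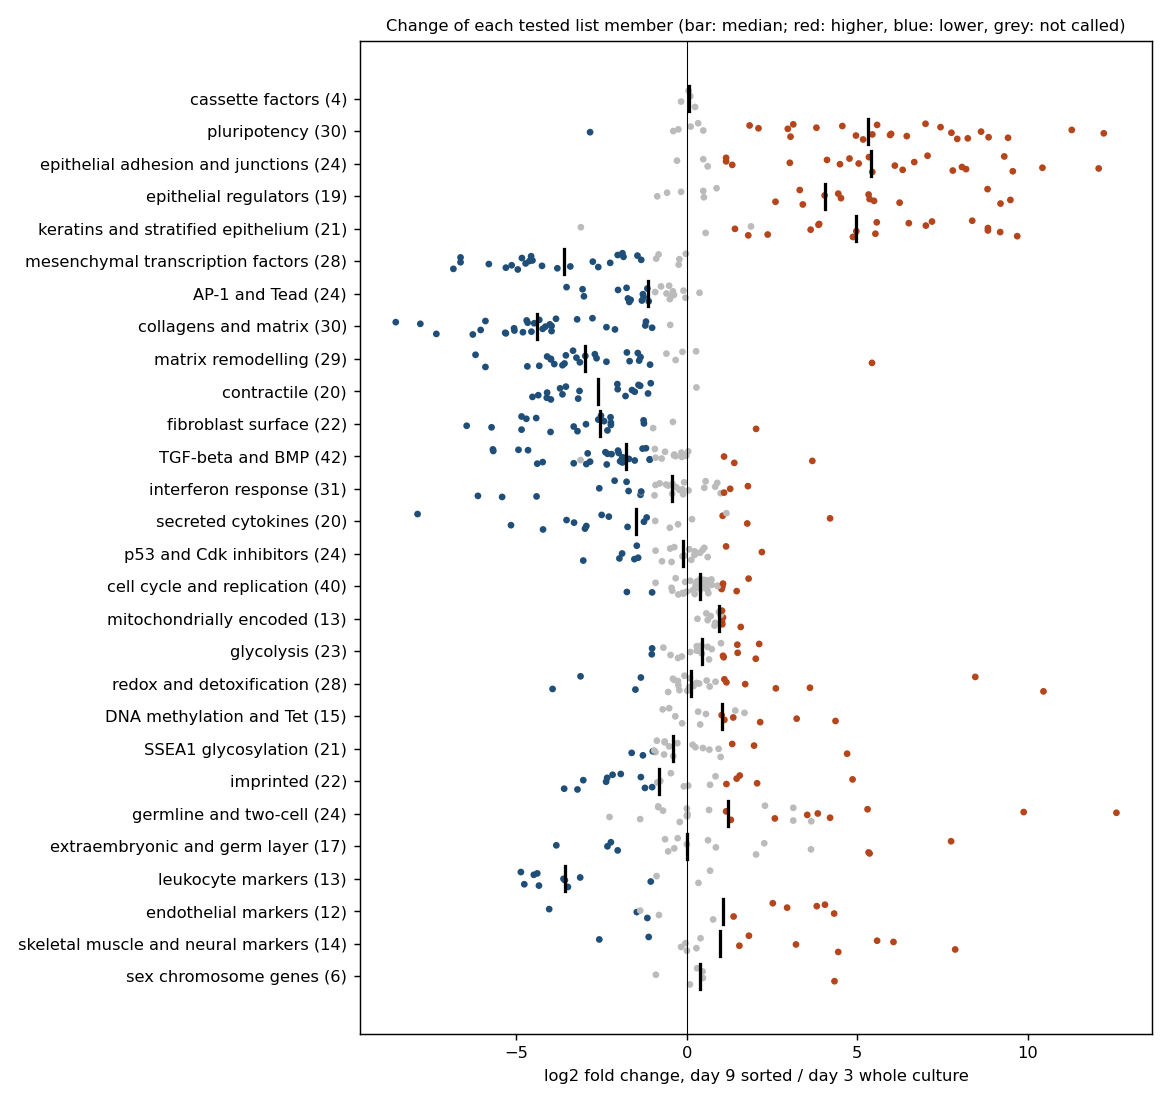
Log2 fold change (day 9 over day 3) of every tested member of the 28 gene lists, with the number tested in brackets, the median as a bar, and members called higher in red, lower in blue and not called in grey. Collagens and matrix (median -4.40) lie at the left, and pluripotency (5.31) and epithelial adhesion (5.39) at the right.

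Genes of TGF-beta and BMP signalling, which hold fibroblasts in the mesenchymal state or, for BMPs, act at epithelial conversion, were lower in 26 of 42 members, higher in 3 and not called in 13 (median -1.79). Among ligands Tgfb3 fell from 85.4 and 83.0 to 3.70 and 4.27 CPM, Tgfb2 from 94.5 and 101 to 12.2 and 13.0 CPM, Bmp4 from 30.1 and 30.3 to 3.95 and 4.42 CPM, and Bmp2 from 13.5 and 13.3 to 0.900 and 0.556 CPM. Bmp7 rose, from 0.108 and 0.177 to 1.61 and 2.07 CPM. Nodal, a ligand of the same family that the list does not hold, rose from 0.808 and 0.828 to 15.9 and 16.4 CPM (log2 fold change 4.30). Of the secreted antagonists on the list, Fst, which binds activin, fell from 59.8 and 57.1 to 0.771 and 1.41 CPM, and Nog, which binds BMPs, from 8.26 and 8.45 to 0.289 and 0.253 CPM. Grem1, another BMP antagonist, fell from 24.9 and 26.2 to 0.932 and 1.06 CPM, and Chrd was not called, at 5.63 and 5.08 against 2.96 and 2.63 CPM. The receptors Tgfbr1 and Tgfbr2 fell by 1.09 on the log2 scale each. The signal carriers Smad1, Smad2, Smad3, Smad4 and Smad5 were all within 0.38 of 0 and not called. Ltbp2, which binds the latent ligand's matrix, fell from 85.5 and 83.8 to 1.99 and 1.36 CPM. Targets of the pathway were mostly lower, with Id1 at 357 and 317 against 83.5 and 85.0 CPM, Id3 at 455 and 412 against 79.4 and 85.7 CPM, and Smad7 at 35.9 and 35.1 against 6.78 and 7.30 CPM. Id2 was not called, at 247 and 230 against 207 and 218 CPM.

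Secreted cytokines were lower in 12 of 20 tested members, higher in 3 and not called in 5. Ptx3, a soluble pattern receptor at chr3:66219910-66225805, had the largest fall, from 29.1 and 26.7 to 0.129 and 0.101 CPM (log2 fold change -7.90). The promoter of Ptx3 is shown for this fall, with matches to the KLF and Sp box in capitals (plus strand of GRCm38.p6, chr3:66219637-66219886).
Ptx3: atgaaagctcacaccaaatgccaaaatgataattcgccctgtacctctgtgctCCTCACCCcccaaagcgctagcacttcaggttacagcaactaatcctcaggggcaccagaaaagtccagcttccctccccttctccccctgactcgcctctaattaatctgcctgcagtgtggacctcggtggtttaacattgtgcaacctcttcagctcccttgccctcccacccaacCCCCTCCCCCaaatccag
It held 3 matches to that box, read from the other strand, and 0 matches to TGANTCA or AAGGTCA. The chemokine Ccl2 fell from 34.4 and 31.2 to 1.64 and 1.84 CPM and Cxcl12 from 40.4 and 43.5 to 4.24 and 4.19 CPM. Lif, the cytokine that is also supplied in the medium, rose from 6.97 and 6.86 to 14.1 and 14.4 CPM, and Il33 from 0.135 and 0.296 to 3.02 and 4.85 CPM.

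Markers of other cells that a whole culture could hold also differed between the days. Of 13 leukocyte markers 10 were lower, 0 higher and 3 not called, with a median log2 fold change of -3.58. C1qc, a complement chain made by macrophages, was at 4.98 and 4.32 CPM at day 3 and 0.161 and 0.152 CPM at day 9. Lyz2, the lysozyme of myeloid cells, was at 13.5 and 11.9 against 0.771 and 1.29 CPM, and the macrophage receptor Adgre1 had 88 reads at day 3 and 3 at day 9, a ratio of 29.2 (interval 9.68 to 144). Laptm5 went the other way without being called, at 186 and 187 against 292 and 306 CPM, and it made up most of the summed level of the list, which was 235 and 230 CPM at day 3 and 304 and 318 CPM at day 9. Without Laptm5, left out after its values were seen, the sums were 48.9 and 43.4 CPM at day 3 and 11.4 and 11.8 CPM at day 9. None of the 13 markers was at 0 in both day 9 libraries. The part of these cells in the falls of cytokine, matrix and interferon genes was not tested.

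Endothelial markers were mixed, with 6 of 12 higher, 3 lower and 3 not called, and summed levels of 143 and 137 CPM at day 3 and 108 and 109 CPM at day 9. Cdh5 (VE-cadherin) was at 8.45 and 6.62 against 3.57 and 3.21 CPM, a call lost without the first library of day 3, while Esam, a junction protein, rose from 0.592 and 0.384 to 6.81 and 7.10 CPM. Tek, the angiopoietin receptor, was at 121 CPM in both day 3 libraries and 67.7 and 68.9 CPM at day 9, and MEF libraries averaged 2.33 CPM. Among skeletal muscle and neural markers 7 of 14 were higher, 2 lower and 5 not called, with sums of 30.2 and 33.7 CPM at day 3 and 123 and 128 CPM at day 9. With limma on log2(TPM + 1) 1 was called higher and 0 lower. Pax7, a paired-box factor of muscle satellite cells and the dorsal neural tube, made up most of that rise. It went from 0.269 and 0.414 to 77.5 and 82.3 CPM (log2 fold change 7.87, adjusted p = 9.1e-15, edgeR). It averaged 0.0457 CPM in MEFs and 0.257 CPM in ESCs. Myod1, the muscle determination factor, had 1 read at day 3 and 27 at day 9, a ratio of 27.1 (interval 4.47 to 1110), and Myog had no read on either day.

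In the interferon list 3 of 31 tested members were higher, 9 lower and 19 not called, with a median log2 fold change of -0.43. With limma on log2(TPM + 1) 3 were called lower. Class I antigen presentation was split: B2m, the light chain, fell from 143 and 136 to 39.6 and 42.3 CPM, and H2-D1 from 105 and 97.4 to 23.6 and 23.1 CPM, while H2-K1 was at 48.6 and 46.1 against 66.5 and 71.7 CPM. H2-D1 and H2-K1 are similar in sequence and may share reads. Ifit2, an interferon-induced RNA-binding protein, fell from 11.7 and 12.5 to 0.482 and 0.631 CPM. Bst2 (tetherin) rose from 60.4 and 58.6 to 203 and 209 CPM, and Ddx58 (RIG-I), a sensor of viral RNA, from 39.3 and 38.2 to 92.5 and 94.5 CPM.

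Of 40 cell cycle and replication genes 6 were higher, 2 lower and 32 not called, with a median log2 fold change of 0.39. Over all tested genes 13.5% were higher and 13.3% lower. Without the 2-fold minimum 29 were higher and 9 lower, beside 6505 and 6219 of all 20165 tested genes. Mki67, a marker of cycling cells, was at 694 and 735 CPM at day 3 and 604 and 600 CPM at day 9. The G1 cyclins moved apart: Ccnd2 fell from 2080 and 2223 to 630 and 636 CPM (-1.76 ± 0.03), and Ccne1 rose from 32.3 and 32.1 to 88.1 and 89.0 CPM (1.46 ± 0.05). Ccnd1 was called lower at -1.02 ± 0.03, a call lost without the second library of day 3 and without the first of day 9. Mybl2, a factor of late cell cycle genes, rose from 69.8 and 67.2 to 241 and 240 CPM. All 6 Mcm2 to Mcm7 helicase genes had both day 9 libraries above both day 3 libraries, which held for 41.5% of all tested genes. They lay between 0.26 and 0.91 on the log2 scale, and none was called. In the p53 and Cdk inhibitor list 2 of 24 were higher, 6 lower and 16 not called. Cdkn2a, the Ink4a and Arf locus that limits reprogramming, was at 65.2 and 62.8 against 68.0 and 72.2 CPM, and Cdkn1a (p21) at 317 and 299 against 221 and 230 CPM. Pmaip1 (Noxa), a p53 target that promotes cell death, rose from 8.72 and 7.72 to 38.4 and 37.5 CPM, and Perp, a p53 target and desmosome component, from 105 in both libraries to 231 and 233 CPM. Trp53 itself was at 217 and 200 against 314 and 325 CPM and was not called. Cdkn1c (p57), a maternally expressed inhibitor, fell from 46.1 and 45.2 to 5.01 and 5.99 CPM.

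Mitochondrially encoded mRNAs took a larger share of the day 9 libraries. Their 13 genes summed to 24521 and 24806 CPM at day 3, 28850 and 29572 CPM at day 6 and 49385 and 46634 CPM at day 9. In all 13 genes both day 9 libraries were above both day 3 libraries, which held for 41.5% of all tested genes. Of the 13, 5 were called higher and 0 lower, and the median log2 fold change was 0.94. mt-Nd1, a subunit of complex I, went from 1426 and 1453 to 4385 and 4208 CPM (1.58 ± 0.03), and mt-Co1, a subunit of complex IV, from 6862 and 7132 to 15016 and 14252 CPM (1.06 ± 0.03). Complex I genes did not share 1 value: mt-Nd2 was at 1951 and 1911 against 3407 and 3361 CPM (0.81 ± 0.03, not called). mt-Nd6, which is encoded on the other strand, was at 472 and 458 against 564 and 586 CPM. The calls depend on the 2-fold minimum, which most members lie near: 3 were called without the first library of day 9, 6 without the second, and 1 when TPM values were tested with limma. Over all reads, mitochondrial genes took 2.47% and 2.54% at day 3 and 5.32% and 5.0% at day 9. Day 6 libraries, which were sorted too, held 3.07% and 3.15%.

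**Figure D4:**
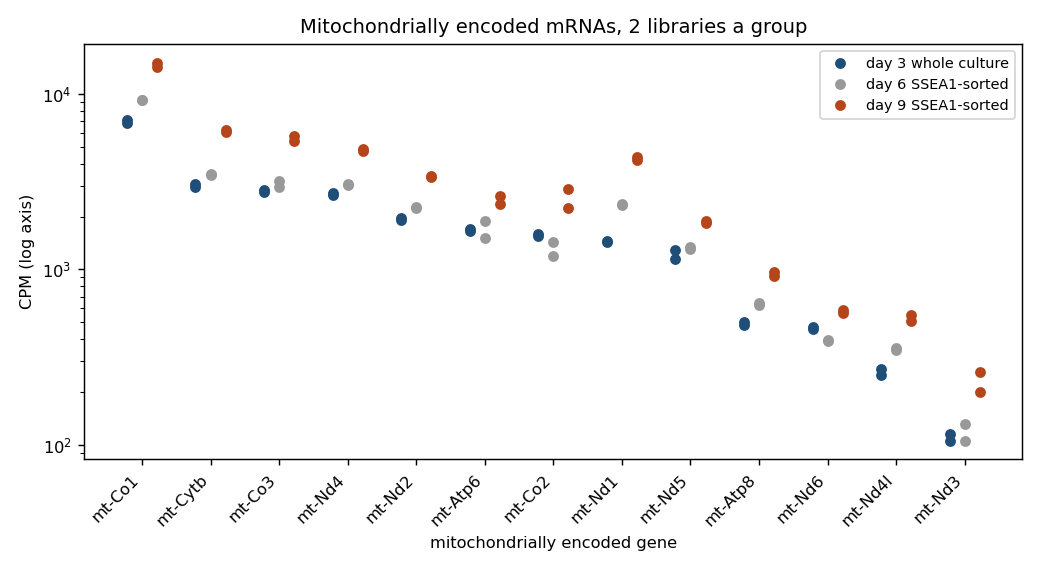
CPM (log axis) of the 13 mitochondrially encoded mRNAs in the 2 libraries of day 3 (blue), day 6 (grey) and day 9 (red). For every gene both day 9 points lie above both day 3 points, and for most genes day 6 lies nearer to day 3.

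Glycolysis genes rose in 6 of 23 members, fell in 2 and were not called in 15. The glucose transporter Slc2a3 (Glut3) rose from 169 in both libraries to 697 and 681 CPM (2.02 ± 0.03), and Hk2, which traps glucose in the cell, from 65.2 and 64 to 135 and 139 CPM. Gapdh was at 2114 and 1939 against 2629 and 2637 CPM. Pfkp and Eno2 were the members that fell. Both calls were lost without the second library of day 9 and that of Eno2 also without the first of day 3. In the redox list 7 of 28 were higher, 4 lower and 17 not called. Gpx2, the epithelial glutathione peroxidase, had 3 reads at day 3 and 4575 at day 9, a ratio of 1531 (interval 523 to 7425), and Gsta3, a glutathione transferase, rose from 2.91 and 2.63 to 32.6 and 35.0 CPM. Gpx8, a peroxidase of the endoplasmic reticulum, fell from 44.4 and 43.0 to 2.73 and 2.93 CPM.

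Among DNA methylation genes 6 of 15 were higher, 0 lower and 9 not called. Tet1, which oxidises methylcytosine, rose from 8.08 and 9.13 to 81.6 and 78.4 CPM (3.22 ± 0.07), against an ESC average of 545 CPM. Dnmt3b, a de novo methyltransferase, rose from 10.1 and 11.1 to 46.8 and 47.3 CPM. Its cofactor Dnmt3l rose from 0.0808 and 0.0296 to 1.22 and 1.24 CPM, against 352 CPM in ESCs. Dnmt1, the maintenance enzyme, was at 244 in both libraries against 320 and 317 CPM, and its partner Uhrf1 rose from 195 and 190 to 411 and 415 CPM.

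Among genes of the sugar chain that carries SSEA1, 3 of 21 tested members were higher, 3 lower and 15 not called. That is near the shares over all tested genes, 13.5% higher and 13.3% lower. Without the 2-fold minimum 7 were higher and 11 lower, beside 6505 and 6219 of all 20165 tested genes. Fut9, a fucosyltransferase that makes the SSEA1 epitope, rose from 2.48 and 2.87 to 72.1 and 67.2 CPM (4.70 ± 0.10, adjusted p = 1.6e-14, edgeR). Its day 6 libraries were at 74.3 and 67.3 CPM, overlapping those of day 9, and the ESC average was 14.4 CPM. B3gnt7, which extends the chain, rose from 8.51 and 8.75 to 21.3 and 22.0 CPM, and Fut10 fell from 27.6 and 29.5 to 8.74 and 9.75 CPM. B4galt1, a galactosyltransferase, was called lower at 70.2 and 66.6 against 34.2 and 34.0 CPM, a call lost without the first library of day 3 and without the second of day 9. Fut4, another fucosyltransferase able to make the epitope, fell from 2.96 and 2.66 to 1.22 and 1.09 CPM. Because the day 9 cells were sorted for this epitope, the level of Fut9 in cells outside the sort is not known from these libraries.

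Imprinted genes fell more often than they rose, with 10 of 22 lower, 5 higher and 7 not called (median -0.82). H19, a maternally expressed non-coding RNA, went from 7314 and 6958 to 573 and 603 CPM (-3.60 ± 0.04), and its neighbour Igf2, expressed from the paternal copy, from 1316 and 1331 to 141 and 145 CPM (-3.21 ± 0.05). At day 6 they were still at 3670 and 3724 CPM and at 1027 and 1036 CPM, and the libraries of the 3 days did not overlap for either gene. The Dlk1 to Meg3 cluster, which is often silenced in reprogrammed cells, was mixed. Meg3 was at 490 and 505 against 456 and 478 CPM and Rian at 650 and 644 against 669 and 659 CPM, and neither was called. Dlk1 was called lower at -1.02 ± 0.10, a call lost without the first library of day 3 and without the second of day 9. Peg10, a paternally expressed gene derived from a retroelement, rose from 4.50 and 4.14 to 17.6 and 18.5 CPM, and Snrpn, another paternally expressed gene, from 17.4 and 17.7 to 47.3 and 49.4 CPM. Phlda2, a maternally expressed growth regulator, had 3 reads at day 3 and 94 at day 9, a ratio of 31.4 (interval 10.4 to 155). These files do not give the parental copy that was read.

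Germline and 2-cell genes were higher in 9 of 24 tested members, lower in 0 and not called in 15. Rhox6, a homeobox gene of the X-linked reproductive cluster, had no read at day 3 and 1615 at day 9, which makes it at least 540-fold higher against 3 reads over the group. Its neighbour Rhox9 was at least 82.6-fold higher, and both lay above their ESC averages of 2.05 and 1.78 CPM. Rhox6 and Rhox9 are near copies and may share reads. Piwil2, a germline Argonaute, rose from 1.48 and 1.33 to 25.9 CPM in both libraries. Zscan4 genes, the marks of the 2-cell-like state, stayed at 0 to 0.0321 CPM on both days against ESC averages of 69.2 CPM for Zscan4f and 24.9 CPM for Zscan4c. Dazl and Ddx4, later germ cell markers, were not called. In the extraembryonic and germ layer list 3 of 17 were higher, 4 lower and 10 not called: Sox1, a neural plate factor, rose from 0.0538 and 0.0591 to 12.6 and 13.1 CPM and Elf5, a trophoblast factor, from 0.188 and 0.236 to 9.03 and 8.61 CPM, and Tfap2c, a factor of trophoblast and germ cells, from 1.29 and 1.09 to 46.9 and 49.6 CPM, while Dab2 fell from 176 and 175 to 11.2 and 13.3 CPM. T (Brachyury) had no read in either group.

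Over the whole transcriptome, 117 genes were under 1 CPM in both day 3 libraries and at 10 CPM or more in both day 9 libraries, and 109 of them code for protein. At day 6, 34 of the 117 were at 10 CPM or more in both libraries and 6 were still under 1 CPM in both. In ESCs 52 were at 10 CPM or more in both libraries and 22 under 1 CPM in both. Ripk4, a kinase of epidermal differentiation, and Ano9, a membrane scramblase, had no read at day 3 and were at least 695-fold and at least 505-fold higher at day 9. Ap1m2, an epithelial clathrin adaptor subunit, went from 0.0269 and 0.118 to 65.7 and 66.0 CPM (log2 fold change 9.79). In the other direction 39 genes were at 10 CPM or more in both day 3 libraries and under 1 CPM in both at day 9, of which 37 code for protein. Of these, 19 were already under 1 CPM in both day 6 libraries, and 34 were at 10 CPM or more in both MEF libraries. Svep1, a large matrix adhesion protein, fell from 26.8 and 28.8 to 0.0321 and 0.177 CPM, and Nrp1, a semaphorin and VEGF co-receptor, from 63.5 and 70.3 to 0.739 and 0.758 CPM. Il1rn, the interleukin-1 receptor antagonist, fell from 193 and 188 to 2.03 and 2.00 CPM, and Col2a1, the collagen of cartilage, from 110 and 109 to 1.29 and 1.67 CPM. Adamtsl3, C1qtnf3 and Serpinf1 were the other genes among the 12 largest falls not described above, at -7.53, -6.57 and -6.20 on the log2 scale.

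The comparisons of day 6 with day 3 and of day 9 with day 6 share libraries with this one, so their calls are given side by side and not as separate evidence. Day 6 differed from day 3 in 1867 higher and 2059 lower genes, 19.5% of those tested (9.26% higher and 10.2% lower), and day 9 from day 6 in 1045 higher and 541 lower genes, 7.87% of those tested (5.18% higher and 2.68% lower). Day 6 and day 9 cells were both sorted for SSEA1. Cdh1 rose on the log2 scale by 3.05 from day 3 to day 6 and by 2.39 from day 6 to day 9, Epcam by 7.66 and 1.90, and Nr5a2 by 11.24 and 0.98, the last value under the 2-fold minimum. Krt6a rose by 3.87 and then by 5.82. Col1a1 fell by 5.74 and then by 0.54, the second change not called, and Ptx3 by 7.04 and then by 0.86, with an adjusted p of 0.29 in edgeR for the second.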

How the data were processed

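RNA of 10 libraries was sequenced as stranded mRNA (TruSeq, single reads), per the labels' protocols. Per the submitters' processing notes, Salmon 0.8.2 and mm10 were used. The authors deposited 1 table a library, with estimated counts and TPM for each transcript. Estimated counts of 109617 transcripts were summed to 45706 genes by the gene names in the deposited tables and rounded to whole numbers, and 98.8% of these genes are in GENCODE M21. Genes passing filterByExpr (minimum count 10, minimum total 15) numbered 20165. They were fitted over all 10 libraries with TMM scaling and the quasi-likelihood test of edgeR 4.0.16 in R 4.3.3, with Benjamini-Hochberg adjustment over all tested genes. Fold changes are those of the edgeR fit at its default prior count. The log2 CPM values behind the correlation of same-numbered libraries have a prior count of 2. Calls needed an adjusted p under 0.05 and a 2-fold change. The procedure was checked on simulated counts in which all genes had 1 common dispersion, unlike the fit. It called 53% of genes changed 2-fold, which lie at the minimum itself, 100% of those changed 4-fold and 0 unchanged genes. An exact permutation test of 2 libraries against 2 cannot give a p below 0.333, so none was used. Bounds for genes with no read are set against 3 reads over the group, and ratios on 1 to 3 reads have exact 95% intervals. Promoters are RefSeq stretches on GRCm38.p6, searched on both strands. Named genes were a fixed panel (the cassette factors, sex-linked and mitochondrial genes and markers such as Nanog, Cdh1 and Col1a1), the 12 coding genes that rose most and the 12 that fell most, among those reaching 20 CPM on either day, and up to 2 called members a direction and 2 uncalled members a list. The members and the gene lists were chosen with earlier results of these data known, and other members named in the text were picked after their values were seen. Alternatives were DESeq2 1.42.0, its size factors, library-size scaling, limma 3.58.1 on log2 TPM, other filters and fold minimums, fewer groups in the fit, a replicate block, and leaving out each library.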

Additional observations from a re-analysis of the deposited data

How the results depend on the processing

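Against 2726 genes higher and 2690 lower as reported, limma on log2(TPM + 1) called 883 and 1415, and limma on log2(TPM + 0.1) called 1812 higher and 2331 lower. A stricter filter, 10 CPM in 2 libraries, left 11712 genes and called 1161 and 1617. Without a fold minimum 6505 and 6219 genes were called, and at 4-fold 1578 and 1273. DESeq2 called 2328 and 2533, and edgeR with only the day 3 and day 9 libraries fitted called 2552 and 2723. Leaving out 1 library leaves 1 in its group, and most but not all of the reported calls were then kept in each direction. None of the reported calls was called in the other direction under any of these settings. Same-numbered libraries of days 3 and 9 did not deviate together (correlation -0.004), so the numbers were not taken as pairs, and the replicate block gave 2666 and 2634. Over the 726 genes followed, 10285 of 10771 values kept their direction and side of the threshold, 284 lost a call and 201 gained one. Itgam reversed, to 0.04 with limma on log2(TPM + 1), where its adjusted p was 0.91; the cause was not tested. Several lists lost calls with limma on log2(TPM + 1): 10 of 18 keratins and 4 of 9 germline genes were then called higher, 14 of 23 mesenchymal factors, 7 of 12 cytokines and 6 of 10 leukocyte markers lower, and 2 endothelial markers higher and 0 lower in place of 6 and 3. There 3 of 6 cell cycle genes, 4 of 7 redox genes and 2 of 5 imprinted genes were called higher. The number of reads behind a gene and the 2 libraries a group limit the precision.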

Other observations

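Among the 117 genes that went from under 1 CPM to 10 CPM or more, several transcription factors of neural patterning stood beside Pax7 and Sox1. They were singled out after their values were seen and were not tested as a group. Pax2, a factor of the midbrain-hindbrain boundary and kidney, was at 0.485 and 0.296 CPM at day 3 and 21.1 and 24.2 CPM at day 9. Gsx1, a homeobox factor of neural progenitors, was at 0.269 and 0.177 CPM at day 3 and 20 and 21.2 CPM at day 9. In the ESC libraries Pax2 averaged 0.258 CPM and Gsx1 0.435 CPM, but Sox1 averaged 14.5 CPM, above its day 9 mean of 12.9 CPM. Gbx2, also among the 117, averaged 31.7 CPM in ESCs against a day 9 mean of 10.7 CPM.

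Genes of the epidermal surface were also among the 117. Sprr2b, a precursor of the cornified envelope, was at 0.242 and 0.0887 CPM at day 3 and 16.6 and 17.7 CPM at day 9. It had no read in the ESC libraries. Whether Sprr2b shares reads with other Sprr2 genes was not tested.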
